A study of Mus musculus with 10 samples.

Results

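The genes described here encode the proteasome and its regulators. They were chosen by symbol, as every gene whose name begins with Psma to Psmg and a digit, leaving out the inducible immunoproteasome genes Psmb8, Psmb9, Psmb10, Psme1 and Psme2. This gave 45 of the 19938 genes that a whole-transcript array measured in mouse pancreatic islets. Of these, 14 encode the standard core subunits, 9 the base and 8 the lid of the regulatory particle, 7 assembly chaperones, 3 other activators or inhibitors and 2 tissue-specific core subunits. The last 2, Psmc3ip, a meiotic recombination factor, and Psme3ip1, which encodes a partner of an activator, share the prefix but are no subunits. Psme2b is not among the 45, because its probe set also names Psme2.

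Islets of 2 inbred strains were compared, 5 arrays each. One group was male NZO/Hl mice, an obese and diabetes-prone strain, and the other male C3HeB/FeJ mice (labelled C3H). Both were 6 weeks old and had eaten a diet with 45% of its energy as fat from weaning at 21 days, and their islets spent a night in culture with 10 mM glucose. Most arrays carry 2 animal numbers in their title, NZO replicates 4 and 5 do not, and whether animals were pooled is not stated, so the spread behind each p-value is that between the arrays and may be partly technical. The study looked for C3H variants in an interval of 30 to 46 Mb, whose chromosome, not named in the labels, is taken here as chromosome 7. The 4 members on that chromosome, Psma1, Psmc4, Psmd8 and Psmd13, start outside the interval in the RefSeq gene table of GRCm38.p6. Psmc4 and Psmd8 lie close to its lower edge, with promoter sequences from bases 28050043 and 29180624.

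The proteasome is the protease that destroys proteins tagged with ubiquitin. Its barrel-shaped core holds an alpha ring on each end, which gates entry, and beta rings between them, where 3 subunit types cut proteins. The regulatory particle caps the barrel: ATPases of its base unfold the substrate and thread it inward, and its lid removes the ubiquitin chain. Beta cells make and discard large amounts of secretory protein, and proteasomes take up the misfolded part that is exported from the endoplasmic reticulum.

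Values are log2 RMA values, the normalized brightness of a probe set, which is not comparable between genes. One array stood apart. C3H replicate 4 had the highest median over all probe sets (7.05, against 6.93 to 6.99 on the others). Over the genes tested its median was the lowest (7.46, against 7.47 to 7.55), and its 25th percentile the highest (6.45). It was the lowest C3H array for 29 of the 31 standard subunits, as it was for 79.8% of the 4985 genes above the 75th percentile of brightness. The strains also differed in the levels of cell type markers. All 22 measured acinar markers were higher in NZO, with a mean of 8.20 to 9.12 in C3H. In NZO that mean was 9.98 to 10.56 for replicates 1 to 3, but 12.03 for replicate 4 and 11.88 for replicate 5. Of 15 macrophage markers 6 were higher (mean 7.55 to 7.71 in C3H, 7.62 to 8.82 in NZO), as were 3 of 7 duct and 1 of 8 endothelial markers. Lower were 6 of 15 beta cell markers (mean 11.39 to 11.46 in C3H, 10.70 to 11.37 in NZO), 2 of 6 alpha cell markers and 5 of 7 delta and PP cell markers. In such bulk samples, fewer cells of a type and less RNA per cell cannot be told apart.

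No member of the group passed the test between the strains. With limma at a Benjamini-Hochberg adjusted p below 0.05, 0 of 45 were called, where 10.1% of all genes were (5.47% higher and 4.61% lower in NZO). At an unadjusted p below 0.05 there were 3, Psmd5, Psmb2 and Psmc4, where 21.8% of all genes had one. The 2 strains' values did not overlap in 1 member, Psmg3, against 9.14% of all genes. Probe sets of the 31 standard subunits were bright, each at or above percentile 78.3, and 13.3% of the 4324 genes that bright were called. The median difference, NZO minus C3H, was -0.02 over the 45 members and -0.02 over all genes.

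These misses do not show that the strains were alike, but the intervals bound the differences. Each of the 45 limma 95% intervals, not adjusted for their number, lay within 0.5 log2 units of 0, and 24 lay within 0.25. Over the standard subunits the lowest limit was that of Psmd12 (-0.38) and the highest that of Psmc4 (0.42), which is a change of at most 1.30-fold downward and 1.33-fold upward on these probe sets. RMA shrinks differences of very bright and very dim probe sets, and a true difference could exceed these limits for that reason. The limits also hold only for the probe set used for each gene. A second probe set of Psma5, described below, had an interval of -0.92 to -0.42, wholly below the -0.38 given above.

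**Figure D1:**
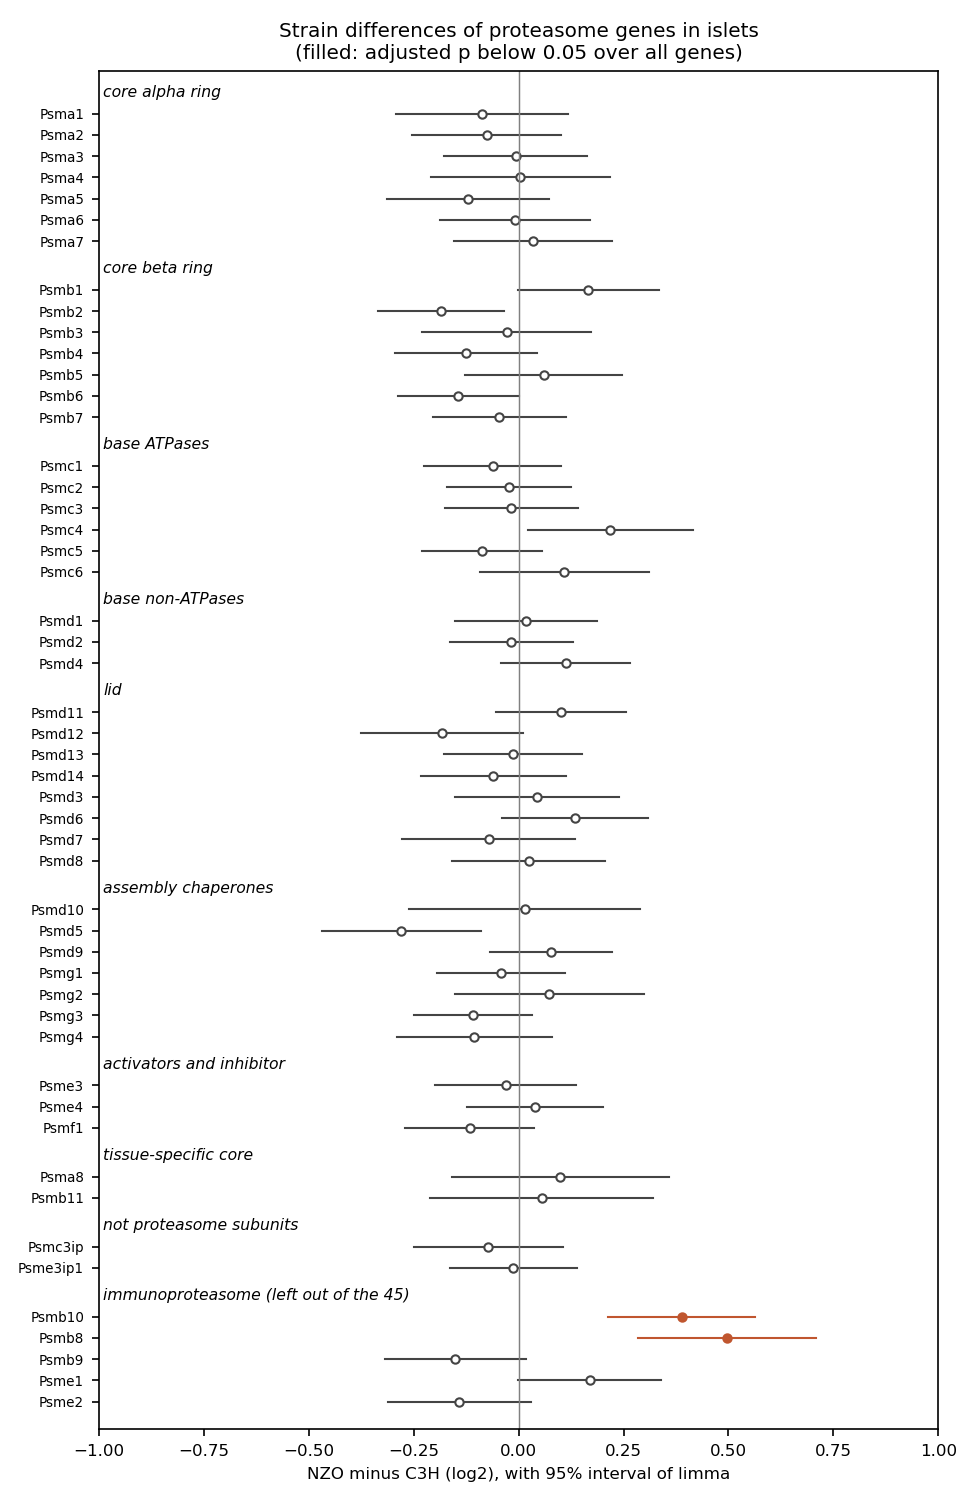
Difference between the strains for each of the 45 genes by role, and for the 5 immunoproteasome genes, on the log2 scale (x axis); points are limma estimates, lines 95% intervals, and filled points passed at an adjusted p below 0.05. All 45 are open points, and only Psmb8 and Psmb10 are filled.

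The count of 0 depended on single arrays. Without C3H replicate 4, the assembly chaperone gene Psmd5 (-0.32, limma adjusted p = 0.0229) and the core gene Psmb2 (-0.21, adjusted p = 0.0479) passed, both lower in NZO, while the share of all genes called lower rose to 7.89%. Without NZO replicate 4, Psmd5 passed alone (-0.33, adjusted p = 0.0306).

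None of the 7 alpha-ring genes passed. Their median difference was -0.01, and each lay between -0.12 and 0.03: Psma5 at -0.12 (SE 0.09), Psma1 at -0.09 (SE 0.10), Psma2 at -0.08 (SE 0.08), Psma6 and Psma3 at -0.01, Psma4 at 0.00 and Psma7 at 0.03. Alpha subunits have no protease activity, and their tails form the gate of the core. Psma2 (9.91), Psma5 (8.94), Psma6 (9.80) and Psma7 (10.40) were each lowest on C3H replicate 4, well below the other C3H arrays.

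Psma5 was measured by 2 probe sets that disagreed. The brighter one, used above, read 9.38, 9.31, 9.29, 8.94 and 9.33 on C3H replicates 1 to 5, and 9.05, 9.04, 9.26, 9.15 and 9.14 on NZO replicates 1 to 5. The ranges overlap through C3H replicate 4. The other probe set read 9.06, 9.32, 9.08, 8.84 and 9.16 in C3H and 8.41, 8.25, 8.82, 8.29 and 8.32 in NZO. Here every NZO array lay below every C3H array, NZO replicate 3 (8.82) only just below C3H replicate 4 (8.84). In place of the brighter one, this probe set was 1.59-fold lower in NZO (log2 difference -0.67, SE 0.12, limma adjusted p = 0.0016). It passed with each array left out in turn (-0.77 to -0.61) and without NZO replicates 4 and 5 (-0.59, adjusted p = 0.0191). With the mean of the acinar markers as a covariate it did not pass (-0.49, SE 0.24, adjusted p = 0.732). That mean did not overlap between the strains, so this fit can hardly separate strain from acinar signal, and its SE was larger. The second minus the brighter probe set ranged from -0.32 to 0.01 in C3H and from -0.85 to -0.43 in NZO, given without a test because the pair was singled out after its values were seen.

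Which of the 2 reads the Psma5 transcript was not tested. The RefSeq table puts Psma5 on chromosome 3. Among the 10 named probe sets numbered next to the second one, 10 belong to genes of chromosome 3, and among those next to the brighter one, 10 belong to genes of chromosome 10. Processed copies of proteasome genes are scattered in the genome. How much signal of each probe set comes from such a copy, or from sequence differences between the strains under a probe, was not tested.

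**Figure D2:**
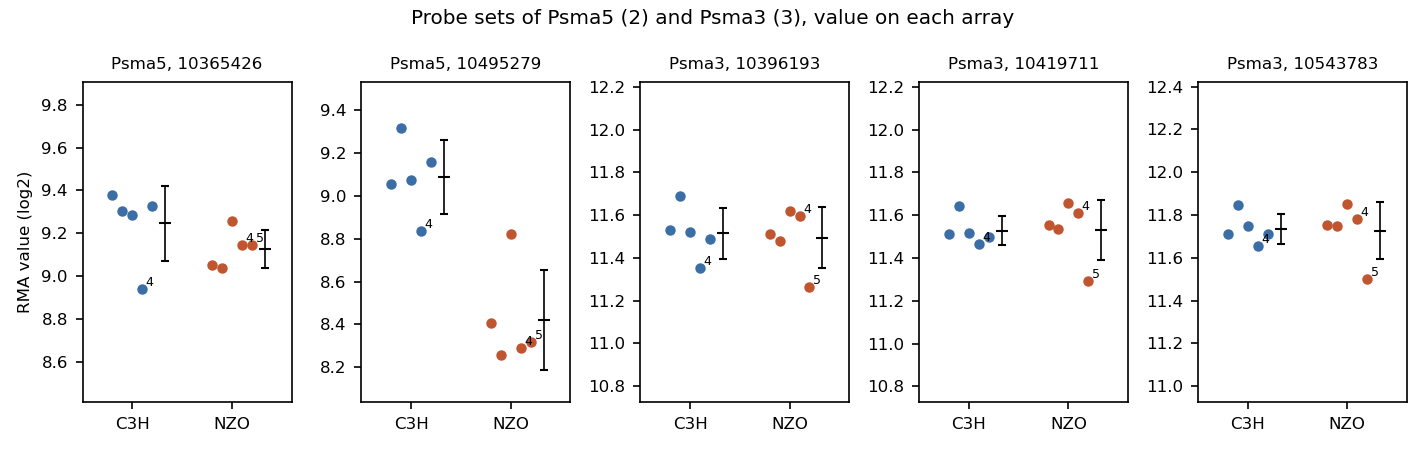
RMA value (log2, y axis) on each array for the 2 probe sets of Psma5 and the 3 of Psma3; points are arrays by strain, bars mean and SD of 5 arrays, and small digits mark C3H replicate 4 and NZO replicates 4 and 5. Only the second Psma5 probe set separates the strains.

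The other 4 genes with several probe sets gave like readings or differences that did not pass. The 3 of Psma3 differed by -0.01, 0.00 and -0.02, with NZO replicate 5 lowest in each. Psmb3 gave -0.03 and 0.14, Psmc1 -0.06 and -0.03, and Psmd2 -0.02 and -0.17 (limma adjusted p = 0.189 for the last, over all single-symbol probe sets). The numbering next to a probe set pointed to another chromosome than the gene's in these genes too. It did so for the one used for Psma3, a gene of chromosome 12 (10 of 10 neighbours on chromosome 6), for another of its 3 (9 of 10 on chromosome 14), and for the second ones of Psmb3, Psmc1 and Psmd2. Of the 11 probe sets of these 5 genes, that second one of Psma5 alone passed.

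The beta ring held the core genes with the smallest p. Of its 7 genes, 5 were lower in NZO and 2 higher in their estimates, with a median of -0.05, and none passed. Psmb2, a structural subunit, read 10.40, 10.31, 10.41, 10.26 and 10.36 on C3H replicates 1 to 5 and 10.28, 10.08, 10.11, 10.20 and 10.14 on NZO replicates 1 to 5. NZO replicate 1 was above C3H replicate 4, and the other 4 NZO arrays lay below every C3H array. The difference was -0.18 (SE 0.07, limma adjusted p = 0.123). Psmb1, also structural, went the other way, at 9.84, 9.83, 9.90, 9.69 and 9.76 in C3H and 10.02, 9.96, 10.08, 9.76 and 10.03 in NZO. NZO replicate 4 alone lay within the C3H range, and the difference was 0.17 (SE 0.08, adjusted p = 0.237). Psmb4 (-0.13, SE 0.08) and Psmb3 (-0.03, SE 0.09), the remaining structural genes, did not pass.

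**Figure D3:**
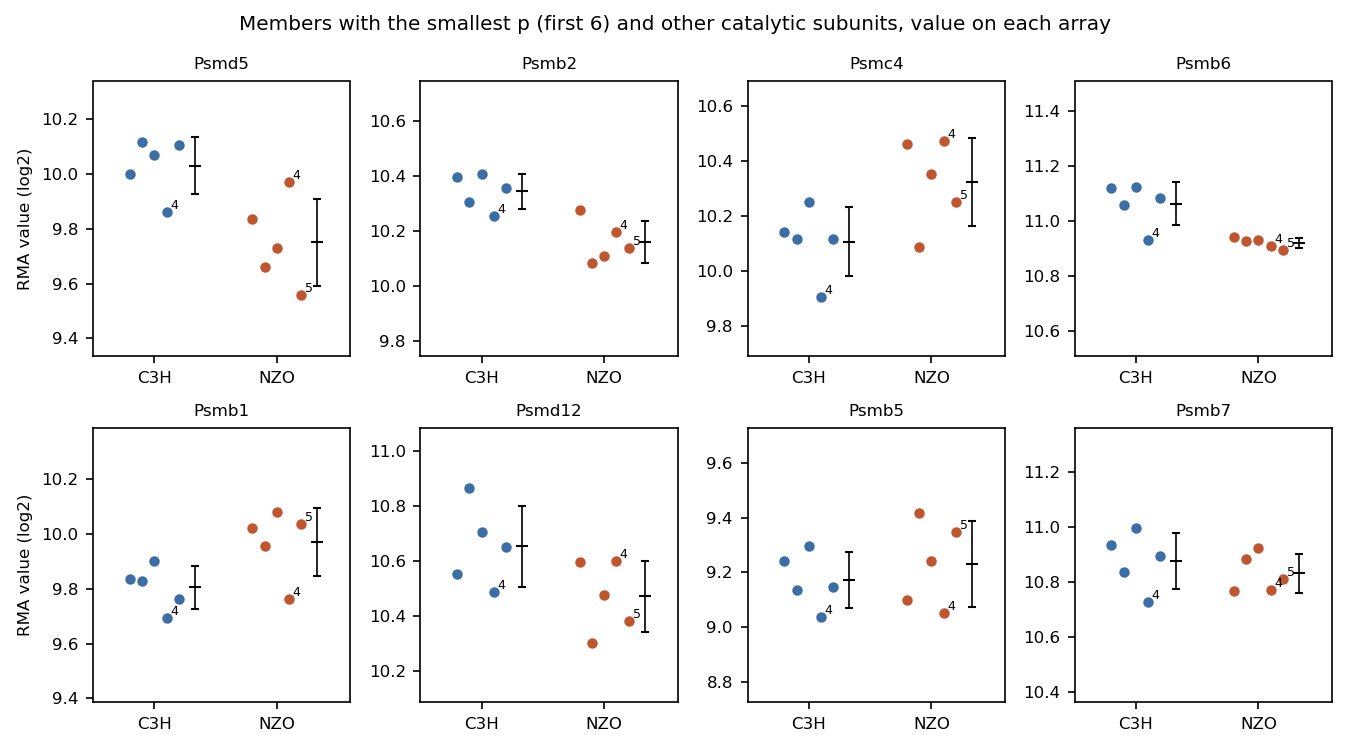
RMA value (log2, y axis, 1 log2 unit per panel) on each array for the 6 members with the smallest p and for Psmb5 and Psmb7; points are arrays by strain, bars mean and SD of 5 arrays, and small digits mark C3H replicate 4 and NZO replicates 4 and 5. C3H replicate 4 is the lowest C3H point in all 8 panels.

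The 3 catalytic subunits are encoded by Psmb5, Psmb6 and Psmb7. Psmb6, which cuts after acidic residues, read 11.12, 11.06, 11.12, 10.93 and 11.09 in C3H and 10.94, 10.93, 10.93, 10.91 and 10.89 in NZO. The NZO arrays were tightly grouped, below all C3H arrays but replicate 4, and the difference was -0.14 (SE 0.07, limma adjusted p = 0.229). Psmb5, which cuts after hydrophobic residues and is the target of proteasome inhibitor drugs, read 9.24, 9.14, 9.30, 9.04 and 9.15 in C3H and 9.10, 9.42, 9.24, 9.05 and 9.35 in NZO. Its ranges overlapped widely, with a difference of 0.06 (SE 0.09, 95% interval -0.13 to 0.25). Psmb7, which cuts after basic residues, read 10.94, 10.83, 10.99, 10.73 and 10.89 in C3H and 10.77, 10.88, 10.92, 10.77 and 10.81 in NZO, a difference of -0.05 (SE 0.07, 95% interval -0.20 to 0.11).

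The factor Nrf1, encoded by Nfe2l1, switches on proteasome genes when proteasome activity falls, through antioxidant response elements in their promoters. Promoter sequence is shown for the 2 catalytic genes in which the core of that element, TGACNNNGC, was found before the start site, and for Psmd12, the lid gene with the largest difference. RefSeq sequence of GRCm38.p6 is given 5′ to 3′ on the gene's strand, with the match on either strand in capitals. Psmb5 is at chr14:54618009-54618067 (minus strand), Psmb6 at chr11:70525323-70525356 (plus) and Psmd12 at chr11:107479278-107479314 (plus).
Psmb5: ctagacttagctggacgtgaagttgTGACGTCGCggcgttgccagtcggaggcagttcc
Psmb6: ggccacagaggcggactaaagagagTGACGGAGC
Psmd12: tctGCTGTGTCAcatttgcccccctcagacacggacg
The Psmb5 match lies 47 to 39 bases before the start, that of Psmb6 9 to 1 bases and that of Psmd12, on the opposite strand, 247 to 239 bases. A promoter table held 37 of the 45 members, with 300 bases for each start; Psmb7, the other catalytic gene, had no entry and was not searched. Of 27 promoters of standard subunits, 4 (14.8%) held the core on either strand, against 12.4% of all 32851 promoters. CCAAT, the box bound by NF-Y, was in 10 of the 27 (37%) and in 37.4% of all, and overlapped no match shown. By these letters and in these windows the group stood close to other genes. Nfe2l1 itself differed by 0.01 (SE 0.07).

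The inducible counterparts of the catalytic subunits, which interferon raises and which replace them in newly built cores, did not move as a block. Psmb8 rose 1.41-fold in NZO (log2 difference 0.50, SE 0.10, limma adjusted p = 0.00456). Psmb10 rose 1.31-fold (0.39, SE 0.08, adjusted p = 0.00668). Psmb9 was at -0.15 (SE 0.08, adjusted p = 0.298), and the activator genes Psme1 and Psme2 at 0.17 (SE 0.08) and -0.14 (SE 0.08). Psmb8 read 8.27, 8.20, 8.40, 8.15 and 8.34 on C3H replicates 1 to 5 and 8.68, 8.83, 8.75, 8.50 and 9.07 on NZO replicates 1 to 5. Psmb10 read 8.76, 8.72, 8.81, 8.59 and 8.83 in C3H and 9.06, 9.30, 9.21, 8.96 and 9.14 in NZO. Neither gene overlapped between the strains. Psmb8, Psmb9 and Psmb10 each rest on 1 probe set, and sequence differences between the strains under its probes were not tested.

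Each inducible gene was then set against its own standard counterpart within the array. Psmb8 minus Psmb5 averaged -0.90 ± 0.06 across C3H arrays and -0.46 ± 0.12 across NZO arrays (SD, n = 5 for both), a shift of 0.44 (exact two-sided permutation test, p = 0.00794, the smallest that 5 against 5 arrays allow, adjusted over 3 pairs 0.0119). Psmb10 minus Psmb7 moved from -2.13 ± 0.05 to -1.70 ± 0.08, a shift of 0.43 with the same exact p-values. All 5 NZO arrays were above all 5 C3H arrays in both pairs. The pairs were chosen with earlier results of these data known. Psmb5 and Psmb7 differed little (0.06 and -0.05), so these p-values are not support separate from the 2 calls above. Psmb9 minus Psmb6 was -2.97 ± 0.14 and -2.98 ± 0.12, a shift of -0.01 (exact permutation p = 0.889). Beside this, of 15 genes of the interferon response, NZO had 6 higher and 1 lower, with a mean of 7.12 to 7.27 in C3H and 7.24 to 7.61 in NZO. Macrophages carry much immunoproteasome, and 6 of their 15 markers were also higher; their part in these results was not tested. NZO replicates 4 and 5 had the highest macrophage means (8.68 and 8.82). Replicates 1 to 3 (7.62 to 8.10) still reached above the C3H arrays (7.55 to 7.71). A fit without NZO replicates 4 and 5 therefore cannot separate strain from macrophage signal. In that fit Psmb8 (0.49, limma adjusted p = 0.00582) and Psmb10 (0.44, adjusted p = 0.0126) passed. Neither passed with the acinar covariate (0.47, SE 0.21 and 0.55, SE 0.17), a fit with the limit given for Psma5.

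**Figure D4:**
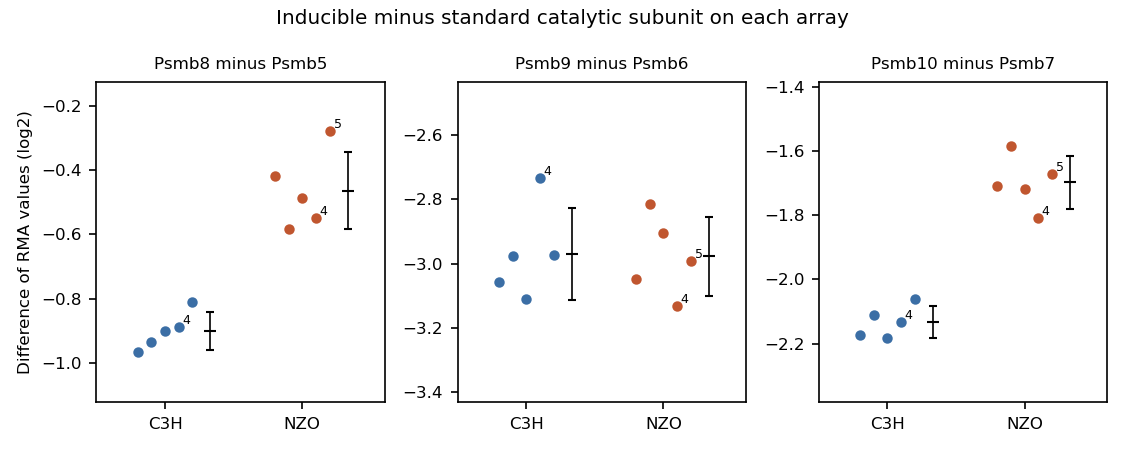
Inducible minus standard catalytic subunit on each array (difference of RMA values, log2, y axis) for the 3 pairs; points are arrays by strain, bars mean and SD of 5 arrays, and small digits mark C3H replicate 4 and NZO replicates 4 and 5. The Psmb8 and Psmb10 pairs separate the strains by 0.44 and 0.43, and the Psmb9 pair does not separate them.

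In the base, Psmc4 had the largest estimate of all standard subunits. It encodes 1 of the 6 ATPases that form the unfolding ring. It read 10.14, 10.11, 10.25, 9.91 and 10.11 on C3H replicates 1 to 5 and 10.46, 10.09, 10.35, 10.47 and 10.25 on NZO replicates 1 to 5. NZO replicates 1, 3 and 4 lay above every C3H array, while NZO replicates 2 and 5 lay within the C3H range. The difference was 0.22 (SE 0.09, limma adjusted p = 0.174), and 0.06 (SE 0.19) with the acinar covariate. The other ATPase genes, from Psmc5 at -0.09 to Psmc6 at 0.11, included Psmc1 (-0.06), Psmc2 (-0.02) and Psmc3 (-0.02). The scaffold genes Psmd1 (0.02) and Psmd2 (-0.02) were near 0, and the ubiquitin receptor gene Psmd4 was at 0.11 (SE 0.07). None of the 9 base genes passed, with a median of -0.02.

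In the lid, 4 of 8 genes had positive and 4 negative estimates, with a median of 0.01, and none passed. Psmd12, a scaffold subunit, read 10.55, 10.87, 10.71, 10.49 and 10.65 in C3H and 10.60, 10.30, 10.47, 10.60 and 10.38 in NZO. The ranges overlapped, and the difference was -0.18 (SE 0.09, limma adjusted p = 0.262). Psmd14, the deubiquitinase that cuts the chain off, was at -0.06 (SE 0.08). Psmd6 (0.13, SE 0.08), Psmd11 (0.10, SE 0.07), Psmd3 (0.04), Psmd8 (0.02), Psmd13 (-0.01) and Psmd7 (-0.07), structural subunits that fold around it, made up the rest.

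Sem1, the smallest lid subunit, carries another symbol and was not among the 45. It read 9.97, 9.92, 10.04, 9.94 and 9.98 in C3H and 9.72, 9.56, 9.92, 9.75 and 9.59 in NZO. All NZO arrays were lower, though NZO replicate 3 and C3H replicate 2 both round to 9.92, and the difference of -0.26 (SE 0.08) just missed the threshold (limma adjusted p = 0.0532). Sem1 passed in 8 of 20 alternative fits and not in the other 12. With an array left out it passed in 2 of 10, without C3H replicate 4 (limma adjusted p = 0.0412) or NZO replicate 3 (adjusted p = 0.0236). The remaining passes came with changes of the processing: filters on brightness, centring, array weights, trend and robust eBayes, and quantile normalization.

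Core and lid were compared through their means on each array, as a description. The core mean lay at 10.40, 10.39, 10.42, 10.16 and 10.37 on C3H replicates 1 to 5 and at 10.30, 10.29, 10.39, 10.29 and 10.27 on NZO replicates 1 to 5. The ranges overlap, with or without C3H replicate 4, which lay below every NZO array. C3H replicates 1 to 3 lay above every NZO array, and C3H replicate 5 above all but NZO replicate 3. The lid mean lay at 10.30, 10.36, 10.33, 10.10 and 10.31 in C3H and at 10.30, 10.19, 10.29, 10.32 and 10.29 in NZO. The mean differences were -0.04 for the core, 0.00 for the lid and 0.03 for the base, against SDs between C3H arrays of 0.11, 0.10 and 0.09. Core minus lid ranged from 0.03 to 0.10 in C3H and was 0.00, 0.09, 0.10, -0.03 and -0.02 on NZO replicates 1 to 5. Only NZO replicates 1, 4 and 5 were below the C3H range, and 4 and 5 are those with the most acinar signal. Whether the latter plays a part was not tested. The medians of the gene differences were -0.04 for core and 0.01 for lid, and -0.09 and -0.04 without C3H replicate 4.

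**Figure D5:**
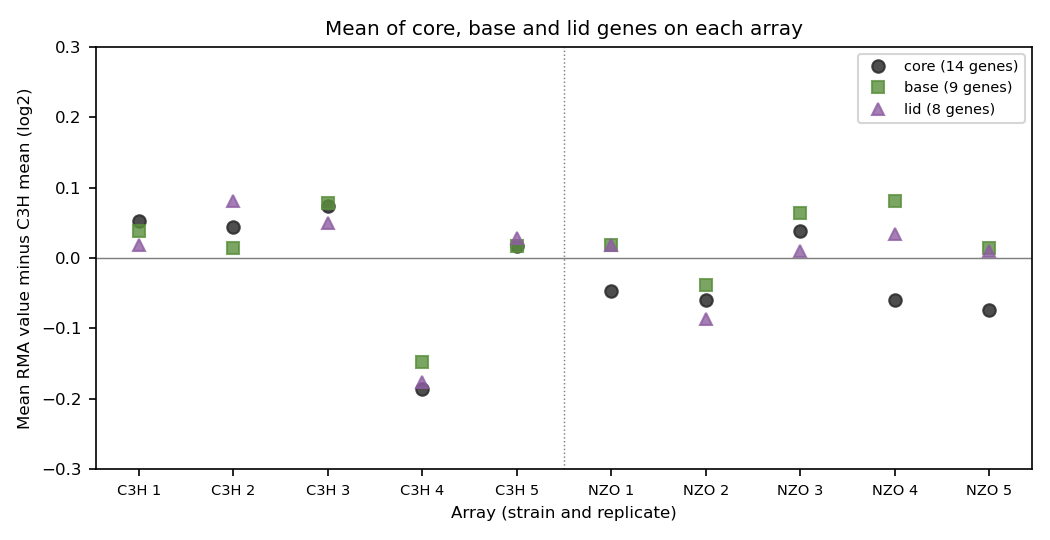
Mean RMA value of the core, base and lid genes on each array minus its mean over the C3H arrays (log2, y axis), by array (x axis); each point is the mean over the genes of that role. All 3 roles are lowest on C3H replicate 4, and among the NZO arrays core lies below lid on replicates 1, 4 and 5.

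Among the assembly chaperones, which build proteasomes without staying in them, Psmd5 had the smallest p of all members. Psmd5 holds ATPases of the base until they join the core. It read 10.00, 10.12, 10.07, 9.86 and 10.10 on C3H replicates 1 to 5 and 9.83, 9.66, 9.73, 9.97 and 9.56 on NZO replicates 1 to 5. All NZO arrays but replicate 4 lay below every C3H array. The difference was -0.28 (SE 0.09, 95% interval -0.47 to -0.09, limma adjusted p = 0.0617). It lay between -0.33 and -0.23 with each array left out, passing in 2 of those 10 fits. The other base chaperone genes Psmd9 (0.08) and Psmd10 (0.01) did not follow.

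Of the core chaperone genes, Psmg3 was the single member without overlap, at 7.15, 7.19, 7.27, 7.16 and 7.19 in C3H and 7.01, 7.10, 7.14, 7.04 and 7.12 in NZO. Its difference was small, -0.11 (SE 0.07, limma adjusted p = 0.39). Its partners Psmg4 (-0.11, SE 0.09), Psmg1 (-0.04) and Psmg2 (0.07) did not pass either.

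The remaining members did not pass. Psme4 (0.04) and Psme3 (-0.03) encode activators of the core that act without ubiquitin, and Psmf1 (-0.12, SE 0.07) a protein first described as an inhibitor. The testis form of an alpha subunit, Psma8 (0.10, SE 0.12), and the thymus form of a beta subunit, Psmb11 (0.06, SE 0.12), were dim. Their strain means, 5.70 and 5.80 for Psma8 and 6.24 and 6.29 for Psmb11, stood below or within the span of the arrays' 25th percentiles (6.17 to 6.45), so neither was shown to be above background. Psmc3ip was at -0.07 and Psme3ip1 at -0.01.

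Genes of the same pathway outside the 45, without the 5 immunoproteasome genes, gave 1 call in 28, 3.57%, against the 10.1% of all genes. Of those 5, described above, 2 were called (40%). Of 7 measured cofactors of the proteasome, 0 passed in limma, 2 had an unadjusted p below 0.05 (Sem1 and the ubiquitin ligase Ube3c), and the median was -0.13. Of the estimates, 6 lay between -0.26 and -0.06, and that of Uchl5, a deubiquitinase gene, was 0.00. Ube3c was at -0.19 (SE 0.08), the gene of another deubiquitinase, Usp14, at -0.13 (SE 0.10), and the core assembly factor Pomp at -0.11 (SE 0.09). Of 11 genes that tag, extract or carry substrates, 0 passed, and 1, the shuttle factor Ubqln4 (0.19, SE 0.08), had an unadjusted p below 0.05. Vcp, the ATPase that pulls proteins from membranes, was at -0.10 (SE 0.06). Of 10 genes of the regulators and of the export machinery of the endoplasmic reticulum, 1 rose. Nfyb, a subunit of NF-Y, read 8.33, 8.66, 8.47, 8.11 and 8.40 in C3H and 8.96, 8.50, 8.68, 9.01 and 8.83 in NZO. NZO replicate 2 lay within the C3H range, and the difference was 0.40 (SE 0.11, limma adjusted p = 0.0383). That call ended in 8 of the 10 fits with an array left out, all but those without C3H replicate 2 or NZO replicate 2 (adjusted p up to 0.101). The other NF-Y subunits Nfya (-0.04) and Nfyc (-0.10) did not pass, nor did Sel1l (0.23, SE 0.08) or Syvn1 (-0.18, SE 0.08), partners in a ubiquitin ligase of that membrane.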

How the data were processed

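Total RNA (150 ng, integrity number above 8) of each islet sample was labelled with biotin and hybridised to an array, per the labels' protocols. The authors made the deposited log2 values with RMA, using Expression Console of Affymetrix, per the labels. Its version is not given in the sources used here. RMA equalises arrays and gives no detection call. The table held 35556 probe sets on 10 arrays, 21789 of them with 1 gene symbol. The brightest per gene was kept, and 5 members had several. NZO minus C3H was fitted on all 19938 genes with limma (version 3.58.1, functions lmFit and eBayes; R 4.3.3). Its two-sided p-values were adjusted by Benjamini and Hochberg's method across those genes, and the script was tested on simulated data. The members, lists and tests were chosen with earlier results of these data known. Per-array values were given for the 6 members with the smallest p, the catalytic genes and the immunoproteasome genes that passed; the second Psma5 probe set, Psmg3 and Sem1 were chosen after their values were seen. Of genes in other lists, called ones were named by rule, and the rest stand for their values only. Replicate numbers follow deposition order. The number of arrays limits the precision. Alternatives covered left-out arrays, an acinar covariate (mean of 22 markers), brightness filters, centring, array weights, eBayes options, other probe sets and quantile normalization.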

Additional observations from a re-analysis of the deposited data

Results flagged for a closer look

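Each member, and the core, base and lid means, was examined for an array far from the other 4 of its strain by Dixon's ratio. Of 96 groups of values, 13 passed the critical value of 0.71, where chance flags about 1 in 20. In 9 of the 13 the array was C3H replicate 4, the lowest of its strain: Psma2 (9.912), Psma5 (8.941), Psma6 (9.796), Psma7 (10.40), Psmd8 (9.904), Psmd11 (10.55), the core mean (10.16), the base mean (9.932) and the lid mean (10.10). In NZO, Psmc3 was low on replicate 1 (9.192), Psma3 on replicate 5 (11.50) and the lid mean on replicate 2 (10.19), and the core mean was high on replicate 3 (10.39). Genes of 1 array are not independent, so these are not 13 separate events.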

How the results depend on the processing

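Of 20 alternatives, 2 were added after seeing the data for all members (the least bright probe set and quantile normalization), as were those for the second Psma5 probe set. The count of members called lower went from 0 to between 0 and 2 with an array left out, to 1 above the median or 25th percentile of brightness, with centring and with trend and robust eBayes (each Psmd5), to 1 with the mean or the least bright of the probe sets (Psma5), to 3 with array weights (Psmd5, Psmb2 and Psmb6) and to 2 with quantile normalization, which called Psmc4 higher (1). Core genes called lower numbered 0 to 1 with an array left out, 2 with array weights and 1 with the mean or least bright probe set and with quantile normalization. All genes called went from 2010 to 4125 with array weights, 1105 without NZO replicates 4 and 5 and 220 with the acinar covariate, which widened the SE. No lid gene was called under any of the 20. Of 895 recomputed member differences, 15 came to pass, none of opposite sign to the value reported. Signs of differences that did not pass changed in up to 15 members (acinar covariate). The core median stayed between -0.09 and -0.01, and the lid median between -0.07 and 0.02. Psmb9 minus Psmb6 was -0.048 to 0.052 with an array left out and 0.049 without NZO replicates 4 and 5, never passing. The Psmb8 and Psmb10 pairs passed in all 12 fits run. That outcome was fixed in advance. All NZO arrays were above all C3H arrays in both pairs, so leaving arrays out kept the strains apart. Each gene of these pairs has 1 probe set, so averaging probe sets changed nothing. The second Psma5 probe set passed in 17 of 18 and was -0.49 with the acinar covariate. No paired analysis was possible because the labels give the strains no shared replicate numbers. The values hold no detection call, so low signal cannot be told from background.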
